A study of Mus musculus with 6 samples.

Results

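Cytokine receptors that keep T cells alive and set how they respond to interferon gamma were examined in mouse lymph node T cells with and without Ezh2, the catalytic subunit of Polycomb repressive complex 2. The 9 genes Il7r, Il2rb, Il2rg, Il4ra, Il21r, Il6ra, Il6st, Ifngr1 and Ifngr2 were chosen by symbol, and 8 of them, of 18193 genes named on the array, had at least 1 probe set carrying that symbol alone. These 8 genes held 17 of the 45101 probe sets. Il2rg is not analysed here, because no probe set was paired with that symbol alone in the annotation. RNA from 3 samples labelled Ezh2 deficient was set against RNA from 3 samples labelled Ezh2fl/fl, each on its own single-colour array, and both groups are lymph node T cells. In the usual notation fl/fl means that both Ezh2 alleles carry loxP sites. The labels give no Cre driver, strain, age, sex, pairing or batch. Nor do they state that each sample is a different animal, so the spread behind every p-value may be partly or wholly technical.

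Most of these receptors are type I cytokine receptors, which have no kinase of their own and signal through bound Janus kinases and STAT transcription factors. The common gamma chain Il2rg pairs with Il7r for IL-7, with Il2rb for IL-2 and IL-15, with Il4ra for IL-4 and with Il21r for IL-21. IL-7 and IL-15 sustain resting naive and memory T cells. IL-6 binds Il6ra and then signals through Il6st, also called gp130, and interferon gamma binds Ifngr1, which signals together with Ifngr2.

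The arrays held the 17 receptor probe sets at levels where all 17 passed the filter on dim signals, so every probe set with a member's symbol was tested. Intensities are quantile normalised, and differences are on the scale of log2(intensity + 43.3), as Ezh2 deficient minus Ezh2 fl/fl. The targeted gene was low on the arrays labelled deficient: Ezh2 had intensities of 282, 289 and 276 in the Ezh2 deficient samples, against 579, 684 and 801 in the Ezh2 fl/fl samples. The log2 difference was -1.16 (SE 0.13, adjusted p = 0.0705 by limma). The adjusted p of Ezh2 was 0.0421 under the deposited scaling and up to 0.263 with an array left out. Its probe set may lie outside the deleted part. Of 13 tested T cell markers, 6 were above 0 and 7 below, with Cd8b1 at -0.17 (adjusted p = 0.581) and Cd5 at 0.13 (adjusted p = 0.710). Under the deposited scaling and its median centring, 8 and 12 markers were above 0. Those scalings put 45.6% and 62.1% of all probe sets tested above 0, against 49.3% in the main analysis. The summed intensity of the 13 markers ran from 108031 to 109583 in the Ezh2 deficient samples and from 107767 to 110792 in the Ezh2 fl/fl samples. Ezh2 fl/fl replicate 1 was set apart by the leading principal component (41.5 there, between -15.1 and -1.48 on the 5 remaining arrays). In such bulk RNA, fewer cells carrying a receptor and less receptor RNA per cell cannot be told apart.

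None of the receptors passed the test across the whole array. Of the 17 probe sets, 0 were called by limma at an adjusted p under 0.05, where 0.0037% of the 27022 probe sets tested were called (1 probe set). The adjusted p of the receptors ran from 0.636 to 0.996. At an unadjusted p under 0.05 there were 4 receptor probe sets, all higher in the Ezh2 deficient samples, where 7.22% of all probe sets tested passed that rule, 3.84% as higher and 3.38% as lower. They belonged to Il6st (2 of its 4 probe sets), Ifngr1 and Il2rb. With an array left out the count ran from 0, when Ezh2 deficient replicate 2 was the one, to 5, when Ezh2 fl/fl replicate 2 was. It was 1 when Ezh2 deficient replicate 1 was left out, and 2 when Ezh2 fl/fl replicate 1 was. Differences ran from -0.20 to 0.45, with 11 of 17 above 0 (49.3% over all probe sets tested), and their median was 0.11, beside -0.0029 over all probe sets tested. The number above 0 depended on the scaling, with 13 under the deposited scaling and 15 after median centring of it, where 45.6% and 62.1% of all probe sets tested were above 0. Several probe sets belong to the same gene and are not replicates of each other, so these are not counts of independent genes.

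**Figure D1:**
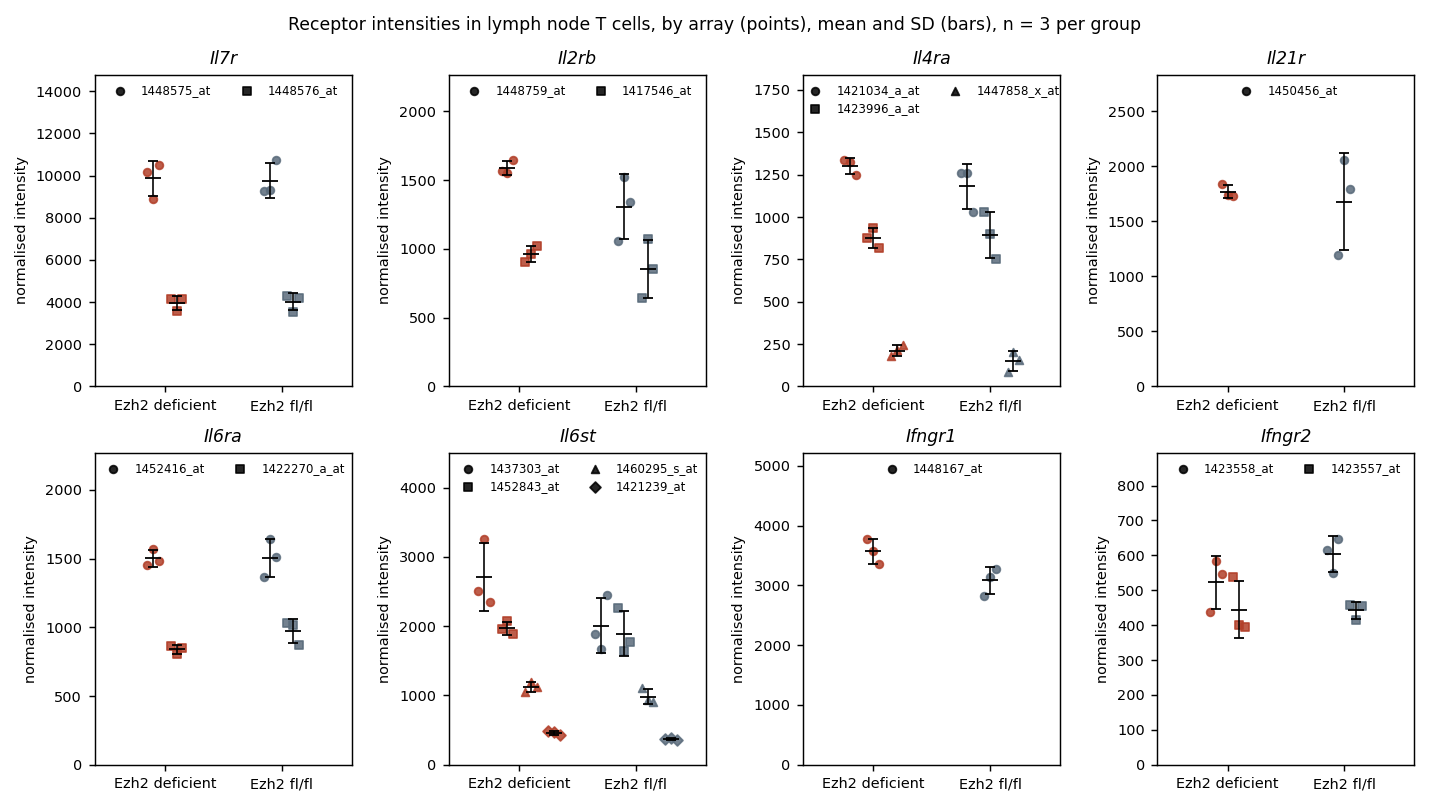
Normalised intensity (linear axis from 0) of the 17 probe sets of the 8 receptor genes, 1 point per array, with Ezh2 deficient samples on the left, Ezh2 fl/fl samples on the right, and bars for the mean and SD (n = 3 each). Il7r has overlapping points in both groups, Il21r and Il2rb have 1 low Ezh2 fl/fl array, and Ifngr1 lies at 3363 to 3781 in the deficient samples, above 2831 to 3278 in the Ezh2 fl/fl samples.

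**Figure D2:**
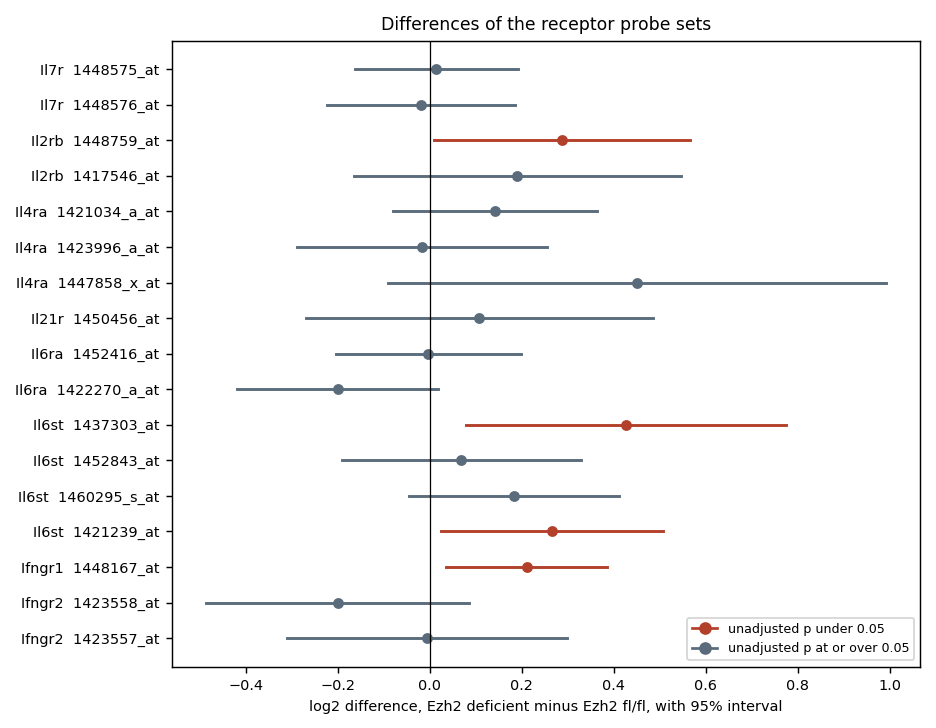
Log2 difference (Ezh2 deficient minus Ezh2 fl/fl) of each receptor probe set with its 95% interval from limma, not adjusted for the number of probe sets. The intervals of 4 probe sets lie above 0, those of 2 Il6st probe sets, Ifngr1 and Il2rb, and none lies wholly below 0.

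In mammals Polycomb repressive complex 2 is found mainly at promoters rich in CpG dinucleotides, and the receptor promoters differ widely in how many they hold. RefSeq promoter sequences (GRCm38.p6, 250 bases before to 50 after the start) matched 8 of the 9 genes. The count of CpG in the window was 1 for Il7r, 3 for Il2rg, 7 for Il21r, 14 for Ifngr1, 25 for Il4ra, 25 for Il6ra, 31 for Ifngr2 and 33 for Il6st. The median over 32851 promoters was 7, and 94.6% of them held at least 1 CpG. The promoters of Il7r, with the fewest, and Il6st, with the most, are printed 5′ to 3′ to show this contrast, with each CpG in capitals. The Il7r window is chr15:9529827-9530126 on the minus strand and the Il6st window is chr13:112463820-112464119 on the plus strand.
Il7r: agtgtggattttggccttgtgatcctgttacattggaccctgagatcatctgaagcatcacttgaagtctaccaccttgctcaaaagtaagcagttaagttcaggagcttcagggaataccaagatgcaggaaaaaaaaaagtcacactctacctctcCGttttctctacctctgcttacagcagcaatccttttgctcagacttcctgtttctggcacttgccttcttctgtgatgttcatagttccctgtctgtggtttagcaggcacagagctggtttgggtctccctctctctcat
Il6st: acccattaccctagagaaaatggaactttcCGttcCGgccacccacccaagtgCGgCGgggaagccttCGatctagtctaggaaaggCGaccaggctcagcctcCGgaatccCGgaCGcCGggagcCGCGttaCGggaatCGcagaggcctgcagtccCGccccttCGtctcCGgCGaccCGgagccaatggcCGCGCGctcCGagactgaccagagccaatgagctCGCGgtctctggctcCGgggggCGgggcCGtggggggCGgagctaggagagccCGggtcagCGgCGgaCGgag
No binding or methylation data were used here, so the sequences are context for the receptors and not a result about them. Of 4 motifs searched on both strands, the STAT motif TTCNNNGAA was in the Il7r window alone among the 8 (8.3% of all promoters), and the FOXO motif GTAAACA in the Il21r window alone (3.65% of all promoters). The RUNX motif TGTGGT was in 3 windows, those of Il7r, Il2rg and Il21r (16.8% of all promoters), and the ETS core GGAA in 6 of 8 (96% of all promoters).

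Among the receptors of homeostatic cytokines, Il7r, the alpha chain that makes naive T cells responsive to IL-7, had nearly equal means in both groups. Its brighter probe set (1448575_at) had intensities of 10163, 8915 and 10518 in the Ezh2 deficient samples, against 9260.4, 9309 and 10721.5 in the Ezh2 fl/fl samples. The groups overlapped, with the highest and the lowest array on opposite sides of the comparison. The means were 9865 ± 842 in the deficient and 9764 ± 829.9 in the Ezh2 fl/fl samples (SD, n = 3 each), and the log2 difference was 0.015 (SE 0.079, adjusted p = 0.977). The 95% interval reached from 0.893-fold to 1.14-fold. The other Il7r probe set (1448576_at) had 4129, 3582 and 4166 in the Ezh2 deficient samples, against 4284, 3554 and 4214 in the Ezh2 fl/fl samples. Its log2 difference was -0.019, with an interval from -0.22 to 0.19.

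Il2rb, the chain shared by the receptors for IL-2 and IL-15 and carried at high levels by memory CD8 T cells and natural killer cells, was somewhat higher in the deficient samples without passing the test. The brighter probe set (1448759_at) had intensities of 1569, 1549 and 1643 in the Ezh2 deficient samples, against 1055, 1524 and 1338 in the Ezh2 fl/fl samples. All 3 deficient arrays lay above all 3 Ezh2 fl/fl arrays, though the nearest pair was 1549 and 1524. The log2 difference was 0.29 (SE 0.12, adjusted p = 0.682), and the exact two-sided permutation p was 0.1, the smallest that 3 arrays against 3 allow. The dimmer probe set (1417546_at) had 908, 966 and 1021 in the Ezh2 deficient samples, against 646, 1070.3 and 852 in the Ezh2 fl/fl samples, and these groups overlapped. Both probe sets were lowest on Ezh2 fl/fl replicate 1. Without that array the log2 differences became 0.15 and 0.012, against 0.29 and 0.19 with it.

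Natural killer cells, which also carry Il2rb, were read by a list of markers. Whether T cells in these samples also carry those markers was not tested. Of 12 such markers with a probe set, 8 were tested and 5 of these were above 0, with a median difference of 0.18 (6 of 8 above 0 and a median of 0.27 without Ezh2 fl/fl replicate 1, 4 of 8 and a median near 0 without Ezh2 fl/fl replicate 3). Their summed intensity, over all 12, ran from 14225 to 15089.8 in the Ezh2 deficient samples and from 13521 to 15208 in the Ezh2 fl/fl samples. Xcl1 and Gzma had the smallest unadjusted p of the list, with log2 differences of 0.68 and 0.63 (adjusted p = 0.532 and 0.584). The 3 tested markers below 0 included Klrk1 at -0.33 and Nkg7 at -0.087. Ncr1, a receptor that defines these cells, was below the filter, at 95.3, 79.35 and 119.7 in the Ezh2 deficient samples and 120.4, 120.5 and 115.2 in the Ezh2 fl/fl samples. The part of other cells in the Il2rb values was not tested.

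Il4ra, the chain that binds IL-4 and with a partner IL-13, gave different answers on its 3 probe sets. The brightest (1421034_a_at) had intensities of 1334, 1326 and 1248 in the Ezh2 deficient samples, against 1259, 1257 and 1028 in the Ezh2 fl/fl samples. The lowest deficient array lay below 2 of the Ezh2 fl/fl arrays, so the groups overlapped, and the log2 difference was 0.14 (SE 0.10, adjusted p = 0.785). The second (1423996_a_at) was at -0.017, with 878, 938 and 818 in the Ezh2 deficient samples against 1027, 902 and 754 in the Ezh2 fl/fl samples. The dimmest (1447858_x_at), whose name marks probes that can match several transcripts, had the largest difference of all 17 at 0.45, but also the widest interval, from -0.09 to 0.99. On that probe set Ezh2 fl/fl replicate 1 was at 85.6, while the other Ezh2 fl/fl samples were at 205 and 157 and the deficient samples at 179, 212 and 245. Without it the difference was 0.19.

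Il21r, the receptor for a cytokine of follicular helper T cells, lies next to Il4ra on chromosome 7 in the GRCm38.p6 gene table. Its probe set had intensities of 1838, 1743 and 1726 in the Ezh2 deficient samples, against 1190.2, 2053 and 1793 in the Ezh2 fl/fl samples. The deficient arrays fell between the lowest and the highest Ezh2 fl/fl array. The log2 difference of 0.11 (SE 0.17, adjusted p = 0.912) turned to -0.12 without Ezh2 fl/fl replicate 1 (adjusted p = 0.823), so its sign rested on that array. B cells carry Il4ra and Il21r as well. Of 12 B cell markers with a probe set, 8 were tested and 4 were above 0, with Pou2af1 at 0.25 and Blk at -0.34 (adjusted p = 0.698 and 0.722). Their summed intensity over all 12 ran from 2451 to 2571 in the Ezh2 deficient samples and from 2331 to 2581 in the Ezh2 fl/fl samples. Cd79a, Blnk, Cr2 and Fcer2a were below the filter. The part of B cells in the 2 receptors' values was not tested.

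The spread between arrays was not the same in both groups for every receptor. The SD of log2 values was larger in the Ezh2 fl/fl group for 13 of 17 receptor probe sets, beside 58.1% of all probe sets tested, and this share was not tested. It was larger in the deficient group for both Ifngr2 probe sets, Il6st 1421239_at and Il7r 1448575_at. Ezh2 fl/fl replicate 1 held the lowest value of 6 receptor probe sets (35.3%), beside 22.6% of all probe sets tested, and the highest value of 4. Centred on each probe set's mean, the median of the 17 receptor values was 0.05, 0.10 and 0.02 in the Ezh2 deficient samples, against -0.08, -0.03 and -0.05 in the Ezh2 fl/fl samples. For Il21r the SD was 0.048 in the deficient group and 0.40 in the Ezh2 fl/fl group on the log2 scale, and for Ifngr2 1423557_at it was 0.23 in the deficient group and 0.073 in the Ezh2 fl/fl group.

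**Figure D3:**
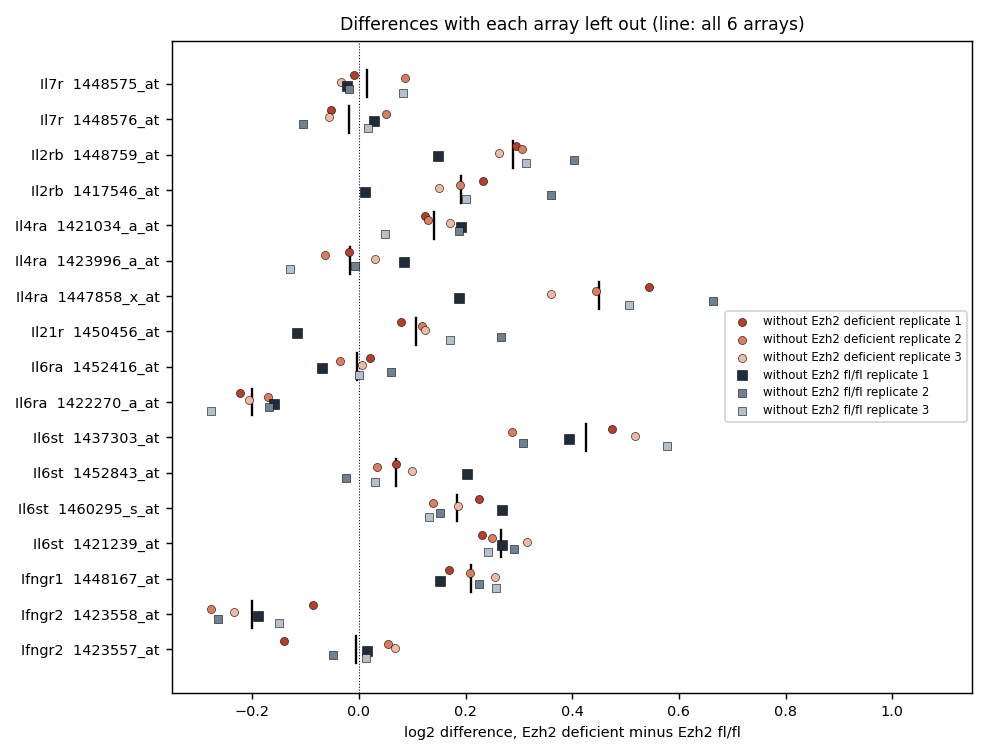
Log2 difference (Ezh2 deficient minus Ezh2 fl/fl) of each receptor probe set with all 6 arrays (vertical line) and with each array left out (circles for deficient arrays, squares for Ezh2 fl/fl arrays). The dark squares, without Ezh2 fl/fl replicate 1, pull Il21r to -0.12 and the dimmer Il2rb probe set to 0.012, while Il6st 1421239_at stays between 0.23 and 0.32.

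The IL-6 receptor chains gave different values. Il6st, the signalling chain shared by IL-6, LIF and oncostatin M, was above 0 on all 4 probe sets, by 0.43, 0.069, 0.18 and 0.27 on the log2 scale from the brightest to the dimmest. The brightest (1437303_at) had intensities of 2503, 3263 and 2353 in the Ezh2 deficient samples, against 1891, 1678 and 2453 in the Ezh2 fl/fl samples. All 3 deficient arrays were above the Ezh2 fl/fl mean, but the lowest of them was under the highest Ezh2 fl/fl array. The group means were 2706 ± 488 in the deficient and 2007 ± 400.1 in the Ezh2 fl/fl samples (SD, n = 3 each), a 1.34-fold difference with an interval from 1.06-fold to 1.71-fold (adjusted p = 0.636). This probe set had the smallest unadjusted p of the 17, at 0.0214, and its log2 difference of 0.43 was 0.29 with Ezh2 deficient replicate 2 left out and 0.31 with Ezh2 fl/fl replicate 2 left out.

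A dim Il6st probe set separated the groups with less spread. Probe set 1421239_at had intensities of 484, 472 and 426 in the Ezh2 deficient samples, against 374, 391 and 362 in the Ezh2 fl/fl samples. Every deficient array lay above every Ezh2 fl/fl array, and the log2 difference was 0.27 (SE 0.11, adjusted p = 0.658). Groups failed to overlap for 3 receptor probe sets on the higher side (this one, Ifngr1 and the brighter Il2rb) and for 1 on the lower side, where 6.55% of all probe sets tested did so on the higher side, 6.54% on the lower side and 13.1% in all. Probe set 1460295_s_at had 1055, 1193 and 1116 in the Ezh2 deficient samples against 1106, 938 and 909 in the Ezh2 fl/fl samples. Probe set 1452843_at had 1965, 2069 and 1881 in the Ezh2 deficient samples against 2265, 1639 and 1779 in the Ezh2 fl/fl samples. Both overlapped between the groups, and on both Ezh2 fl/fl replicate 1 was the highest Ezh2 fl/fl array. Without it their differences were 0.27 and 0.20, against 0.18 and 0.069 with it.

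Il6ra, the IL-6 binding chain found on naive CD4 T cells, lay near or below 0, with the sign of the brighter probe set turning under both other scalings. Probe set 1452416_at had intensities of 1452, 1573 and 1480.2 in the Ezh2 deficient samples, against 1368, 1645 and 1511 in the Ezh2 fl/fl samples, a log2 difference of -0.0028 (SE 0.089). Probe set 1422270_a_at had 867, 803 and 847 in the Ezh2 deficient samples, against 1029.8, 1017 and 871 in the Ezh2 fl/fl samples. These 2 groups did not overlap, but the log2 difference of -0.20 (SE 0.10, adjusted p = 0.710) missed the threshold and its interval, from -0.42 to 0.02, included 0. Within each array, log2 Il6st (1437303_at) minus log2 Il6ra (1452416_at) was 0.77, 1.03 and 0.65 in the Ezh2 deficient samples, against 0.45, 0.028 and 0.68 in the Ezh2 fl/fl samples, with overlapping groups.

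Ifngr1 and Ifngr2 encode the chains of the interferon gamma receptor. The groups did not overlap for Ifngr1 and overlapped on both Ifngr2 probe sets. Ifngr1, the ligand-binding chain, had intensities of 3781, 3578 and 3363 in the Ezh2 deficient samples, against 2831, 3146 and 3278 in the Ezh2 fl/fl samples. Every deficient array was above every Ezh2 fl/fl array. The means were 3574 ± 209 in the deficient and 3085 ± 229.9 in the Ezh2 fl/fl samples (SD, n = 3 each), a 1.16-fold difference with an interval from 1.03-fold to 1.31-fold. The log2 difference of 0.21 (SE 0.08) had an adjusted p of 0.636 by limma, and it was 0.15 with Ezh2 fl/fl replicate 1 left out and 0.17 with Ezh2 deficient replicate 1 left out.

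Ifngr2, the signalling chain whose amount is known to limit the response of T cells to interferon gamma, lay near or below 0, with the sign of the dimmer probe set turning under median centring. Probe set 1423558_at had intensities of 438, 583 and 547 in the Ezh2 deficient samples, against 616, 548 and 648 in the Ezh2 fl/fl samples, a log2 difference of -0.20 (SE 0.13, adjusted p = 0.762). The low value belonged to Ezh2 deficient replicate 1, and without it the difference was -0.086. Probe set 1423557_at had 539, 401 and 393 in the Ezh2 deficient samples, against 457, 415 and 456 in the Ezh2 fl/fl samples, a log2 difference of -0.0060, with replicate 1 of the deficient group the highest array. The 2 probe sets thus placed that array at opposite ends. Within each array, log2 Ifngr1 minus log2 Ifngr2 (1423558_at) was 2.99, 2.53 and 2.53 in the Ezh2 deficient samples, against 2.12, 2.43 and 2.265 in the Ezh2 fl/fl samples, which did not overlap. With 1423557_at it was 2.72, 3.03 and 2.96 in the Ezh2 deficient samples, against 2.52, 2.80 and 2.73 in the Ezh2 fl/fl samples, which overlapped. These within-array differences were not tested.

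Myeloid cells also carry Ifngr1 and Il6ra. Of 14 myeloid and dendritic cell markers with a probe set, 7 were tested and 3 were above 0, and the summed intensity over all 14 ran from 1576 to 1653 in the Ezh2 deficient samples and from 1609 to 1871 in the Ezh2 fl/fl samples. Itgam and Cd14 were below the filter on dim signals. Ccl22 was at 0.51 (adjusted p = 0.619), and Csf1r at -0.42 on its brightest probe set (adjusted p = 0.632) and up to 0.29 on the others. The part of these cells in the Ifngr1 and Il6ra values was not tested. Of 9 stromal and red cell markers with a probe set, 5 were tested. The 2 above 0 were Col1a1 at 0.29 and Pdpn at 0.15, and those below 0 included Hba-a1 at -0.38 (adjusted p = 0.648) and Pecam1 at -0.20 (adjusted p = 0.714). Their summed intensity over all 9 ran from 1989 to 2006 in the Ezh2 deficient samples and from 1933 to 2438 in the Ezh2 fl/fl samples.

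Genes that act with these receptors were taken from lists, and 0 genes of any list passed over all probe sets. Beside the counts above 0 of these lists, the share over all probe sets tested was 49.3%. It was 45.6% under the deposited scaling and 62.1% after its median centring. Of 13 ligands with a probe set, 6 were tested, and 7 were below the filter (Il7, Il15, Il2, Il9, Il13, Il6 and Tslp). Among the 6 tested ligands, 4 were above 0. An unadjusted p under 0.05 was reached by 3, all above 0, where 7.22% of all probe sets tested passed that rule. The median of the 6 was 0.29 with all arrays and 0.14 when Ezh2 fl/fl replicate 1 was left out. Ifng, which encodes the ligand of Ifngr1, had intensities of 324, 296 and 281 in the Ezh2 deficient samples, against 179, 268 and 219 in the Ezh2 fl/fl samples, and the groups did not overlap (log2 difference 0.38, adjusted p = 0.657). Il21, the ligand of Il21r, was at 0.52 with overlapping groups (adjusted p = 0.651). Lif, a dim gene near the filter, was at 0.47 with groups that did not overlap (adjusted p = 0.692). Il7 and Il15, made mainly by stromal and myeloid cells, were below the filter on all their probe sets. Il15 had 113, 130.5 and 113 in the Ezh2 deficient samples, against 60.7, 103 and 82.3 in the Ezh2 fl/fl samples, and these dim values did not overlap. The brighter Il7 probe set did not overlap in the opposite direction, with 33.0, 66.6 and 59.2 in the Ezh2 deficient samples, against 70.5, 85.65 and 81.95 in the Ezh2 fl/fl samples (log2 difference -0.37), and the dimmer one overlapped. Neither gene was tested. Of 16 partner receptor chains, 6 were above 0 and 10 below, with a median of -0.053 (7 and 8 above 0 under the deposited scaling and its median centring), and 0 had an unadjusted p under 0.05. Crlf2, the partner of Il7r in the receptor for TSLP, was at -0.28 (adjusted p = 0.700), and Il2ra, the high-affinity IL-2 receptor chain, was at -0.28 on its brighter probe set (adjusted p = 0.739). Il15ra, which presents IL-15 to Il2rb, was at -0.053 on its brighter probe set and at 0.055 on the other.

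**Figure D4:**
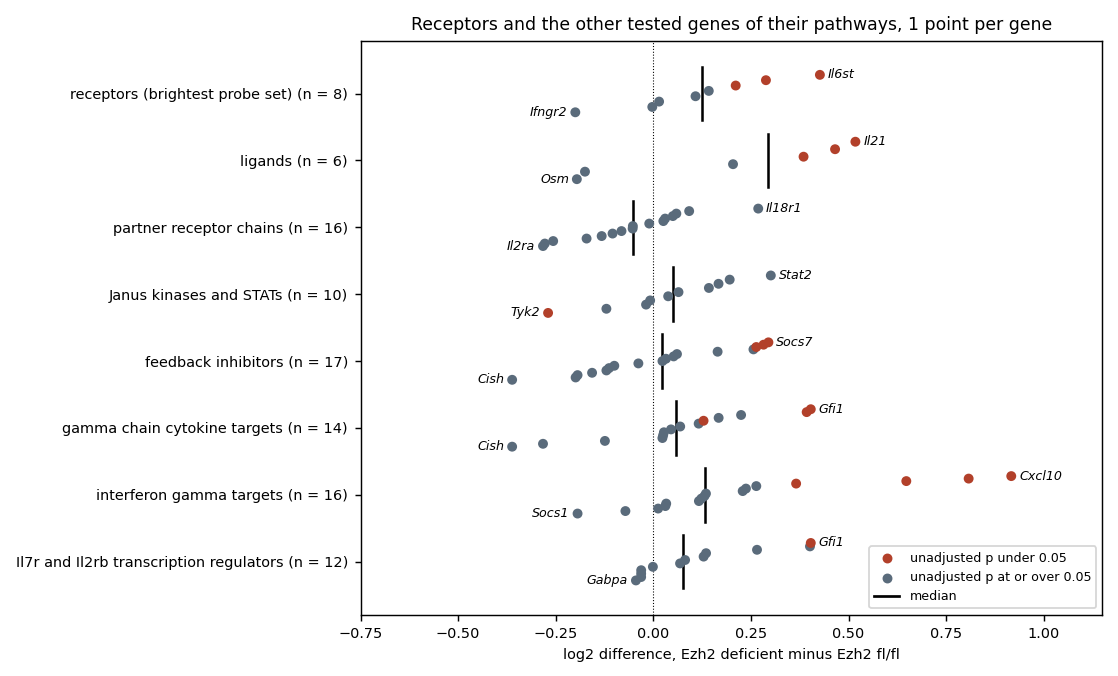
Log2 difference (Ezh2 deficient minus Ezh2 fl/fl) of the receptors and of the other tested genes of their pathways. Each gene has 1 point per list, at its brightest probe set, with the median of each list as a line and red for an unadjusted p under 0.05. Il2ra, Cish, Socs1 and Gfi1 are on more than 1 list and have a point in each. Medians run from -0.05 for the 16 partner chains to 0.29 for the 6 ligands (0.14 when Ezh2 fl/fl replicate 1 is left out), and the largest single value is Cxcl10 at 0.92.

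Janus kinases and STATs, the families through which these receptors signal, were read next as a list, and not every listed member serves these receptors. Of 10 tested Janus kinases and STATs, 6 were above 0 and 4 below, with a median of 0.051, and 8 were above 0 under the deposited scaling and after its median centring. Jak1, which serves nearly all of these receptors, was at 0.064 and Jak3, which binds the common gamma chain, at 0.038. Stat5b and Stat6, used by IL-7 and IL-4, were at -0.019 and -0.0083, Stat5a at -0.12, and Stat3, used by IL-6 and IL-21, at 0.14. Jak2, which binds Ifngr2, was at 0.17. Tyk2 had the smallest unadjusted p of the list at -0.27 (adjusted p = 0.636) and the groups did not overlap, but its other probe set stood at 0.38. Stat4 followed at 0.20 (adjusted p = 0.706).

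The feedback inhibitors of this signalling lay on both sides of 0. Of 17 tested, 9 were above 0 and 8 below (8 and 11 above 0 under the deposited scaling and its median centring). An unadjusted p under 0.05 was reached by 3, all above 0, where 7.22% of all probe sets tested passed that rule (3.84% as higher). Socs7 and Pias2 had the smallest p, at 0.29 and 0.28 on their brightest probe sets (adjusted p = 0.636 each). Over its 3 tested probe sets Socs7 ran from -0.059 to 0.31, and Pias2 ran from 0.0054 to 0.28 over its 3. Cish, a STAT5 target that restrains IL-2 signalling, was at -0.36, with 1665, 1659 and 1507 in the Ezh2 deficient samples against 1567, 3209 and 1783 in the Ezh2 fl/fl samples, where 1 array was far above the rest. With that array left out the Cish difference was -0.055. Socs3, which binds Il6st, was at 0.26 and Socs1 at -0.19, both with overlapping groups, and each turned sign with 1 array left out (Socs3 -0.016 for Ezh2 fl/fl replicate 3, Socs1 0.018 for Ezh2 fl/fl replicate 2).

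Known targets of the receptors gave 0 calls. Of 14 tested targets of common gamma chain cytokines, 11 were above 0, with a median of 0.057. Without Ezh2 fl/fl replicate 1 only 5 were above 0 and the median was -0.057. The list does not separate targets that these cytokines raise from targets that they lower. Bcl2, a survival gene downstream of IL-7, was at 0.22 on its brightest probe set and ran from -0.41 to 0.22 over its 5 probe sets. Its sign on the brightest rested on Ezh2 fl/fl replicate 1, and the difference was -0.045 with that array left out. Bcl6 was at 0.39 on its brightest probe set (adjusted p = 0.619) and at 0.11 on its other one. Of 16 tested targets of interferon gamma, 14 were above 0, with a median of 0.13. An unadjusted p under 0.05 was reached by 4, all above 0, where 7.22% of all probe sets tested passed that rule (3.84% as higher). Under the deposited scaling 13 were above 0 with a median of 0.16, and after its median centring 15 with a median of 0.23. Median centring put 62.1% of all probe sets tested above 0, with a median of 0.051. The main analysis had 49.3% above 0 and a median of -0.0029. Leaving out Ezh2 deficient replicate 1 gave 11 of the 16 targets above 0 and a median of 0.078. Leaving out Ezh2 deficient replicate 2 gave 15 and 0.24. Many of these genes also answer to type I interferon. Cxcl10, a chemokine, had 715, 373 and 502 in the Ezh2 deficient samples, against 205, 268 and 288 in the Ezh2 fl/fl samples (log2 difference 0.92, adjusted p = 0.455). Gbp6, a guanylate-binding protein, had 5355, 3337 and 4517 in the Ezh2 deficient samples, against 2354, 2793 and 3139 in the Ezh2 fl/fl samples (log2 difference 0.65, adjusted p = 0.512). On both genes Ezh2 deficient replicate 2 was the lowest deficient array. A link of these targets to the receptor values was not tested.

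Transcription factors known to act on Il7r and Il2rb were also read. Of 12 tested, 7 were above 0, with a median of 0.075, while 10 were above 0 under the deposited scaling (median 0.11) and 12 after its median centring (median 0.18). Those scalings put 45.6% and 62.1% of all probe sets tested above 0, against 49.3% in the main analysis. The median of the 12 genes was 0.034 with Ezh2 deficient replicate 2 left out and 0.045 with Ezh2 deficient replicate 3 left out. With Ezh2 fl/fl replicate 2 left out it was 0.033. Gfi1, a repressor of Il7r in CD8 T cells, had 789, 884 and 819.8 in the Ezh2 deficient samples, against 529, 619 and 717 in the Ezh2 fl/fl samples (log2 difference 0.40, adjusted p = 0.596). Il7r itself was at 0.015 and -0.019, and a link between Gfi1 and Il7r was not tested. Foxo1, an activator of Il7r, was at -0.031. Tbx21, which activates Il2rb, was at 0.40, with 379, 339.6 and 443 in the Ezh2 deficient samples against 204, 337 and 319.9 in the Ezh2 fl/fl samples (adjusted p = 0.695). With Ezh2 fl/fl replicate 1 left out the Tbx21 difference was 0.21.

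The genes whose 6 values most resembled those of the brightest Il6st probe set were Cep44 (Pearson r = 0.997), Ptpn1 (r = 0.994) and Coa7 (r = 0.991) over 6 arrays, among 21985 probe sets of named genes, of which 194 (0.882%) had r at or above 0.9. Ptpn1, a phosphatase of cytokine signalling, had 925, 1096 and 916 on this probe set in the Ezh2 deficient samples, against 781, 728 and 951 in the Ezh2 fl/fl samples. On its brightest probe set the group difference of Ptpn1 was 0.023.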

How the data were processed

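Gene expression in 6 mouse lymph node T cell samples was measured on single-colour arrays. The authors deposited linear intensities, a value for each probe set on each array, made with software and settings not given in the sources used here. Each array has a trimmed mean of 500.002 (2% left out at each end), and the array medians differ by up to 15.2%.

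Because that exceeded a tolerance of 10%, intensities were quantile normalised and turned into log2(intensity + 43.3), the pseudocount being the 20th percentile of the positive values. Changes of dim probe sets are understated on this scale. Control probe sets (64) and those under the 40th percentile of mean log2 value were left out. limma 3.58.1 (R 4.3.3) was fitted to the remaining 27022 with eBayes and an intensity trend, over all 6 arrays with no covariate, two-sided, with Benjamini-Hochberg adjustment over all of them. The limma step was tested on simulated data. Intervals are 95% and not adjusted. The number of arrays limits the precision.

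Probe sets were named from the platform annotation where it gave a single symbol. A gene on a list is represented by its brightest tested probe set. Genes named were all member probe sets, the 2 genes of smallest unadjusted p of each list, and a set of direct partners. Other named genes were chosen after their values were seen. The members and lists were chosen with earlier results of these data known. Alternatives covered scaling, pseudocount, filter, eBayes settings, array weights, each array left out, and gene means.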

Additional observations from a re-analysis of the deposited data

How the results depend on the processing

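The 17 receptor probe sets gave 0 calls at an adjusted p under 0.05 under each of the 16 alternatives, while their number at an unadjusted p under 0.05, 4 in the main analysis, was 2 by eBayes without trend, 2 with gene means (the probe sets of each gene averaged), and ran from 0 to 5 with an array left out. The median receptor difference of 0.11 was 0.19 under the deposited scaling with median centring, which put 62.1% of all probe sets above 0 (49.3% in the main analysis) and 15 of the 17, and 0.15 with gene means. It ran from 0.080 to 0.15 with an array left out. Over the array, the 1 call became 3 under the deposited scaling, 2 with median centring, 3 by robust eBayes, 3 with array weights and 2 with gene means, and ran from 1 to 6 with an array left out (6 when it was Ezh2 deficient replicate 2, 3 when it was Ezh2 fl/fl replicate 1). The Ezh2 probe set, at -1.16 (adjusted p = 0.0705), passed under the deposited scaling (-1.19, adjusted p = 0.0421), by robust eBayes (-1.16), with array weights (-1.20), with gene means (-1.16) and without Ezh2 fl/fl replicate 1 (-1.28). It did not pass under the remaining alternatives. Its adjusted p by limma was 0.241 with no filter, 0.217 without trend and 0.263 without Ezh2 deficient replicate 3. The Ezh2 difference was -0.91 with the pseudocount 4 times higher, and ran from -1.28 to -1.05 with an array left out.

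Signs turned only where the difference was close to 0 or rested on 1 array. The brighter Il7r probe set was at -0.0066 with array weights and -0.0023 with gene means, and ran from -0.034 to 0.086 with an array left out. The other Il7r probe set was at 0.0095 under the deposited scaling and 0.077 with median centring, and ran from -0.10 to 0.051. Il4ra 1423996_a_at was at 0.047 with median centring and 0.031 with array weights, and ran from -0.13 to 0.084. Il6ra 1452416_at was at 0.0060 under the deposited scaling and 0.074 with median centring, and ran from -0.070 to 0.060. Ifngr2 1423557_at was at 0.034 with median centring and 0.0087 with array weights, and ran from -0.14 to 0.067. With an array left out, Il21r ran from -0.12 to 0.27 and Il6st 1452843_at from -0.025 to 0.20. Where an alternative changed a value, the cause was not tested. No paired analysis was possible because the labels give the 2 groups no shared replicate numbers. No detection calls were used here, so signal over background could not be judged for the dimmest probe sets.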
